A study of Mus musculus with 12 samples.

Results

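The genes described here are 5 mouse ribosomal protein genes, each set beside 1 close relative elsewhere in the genome: Rpl3 with Rpl3l, Rpl22 with Rpl22l1, Rps27 with Rps27l, Rpl7 with Rpl7l1 and Rpl39 with Rpl39l. They were picked by symbol and make up 10 of the 30154 genes in the deposited tables. The first gene of each pair is called the canonical member and the second the paralog.

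The cytosolic ribosome is built from ribosomal RNA and a fixed roster of proteins of the large (Rpl) and small (Rps) subunits, whose genes are usually transcribed and translated at matched rates. A few of these proteins have a paralog that can take the place of the canonical protein or has duties outside the ribosome. Rpl3l replaces Rpl3 in ribosomes of heart and skeletal muscle fibres, Rpl22 protein binds the Rpl22l1 transcript and restrains it, Rps27l is a target of the p53 transcription factor, and Rpl39l is best known from male germ cells. Rpl7l1 is related to a yeast factor of large-subunit assembly.

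RNA was measured in bulk from muscle stem cells, the resident cells that rebuild muscle fibres, sorted by flow cytometry from the tibialis anterior, gastrocnemius and quadriceps of C57BL/6J mice aged 2 to 3 months. Wild-type mice (WT) and mice labelled as Sestrin1,2 knockout (KO) were sampled before injury (day 0), at day 7 and at day 21 after injury, with 2 libraries in each of the 6 groups. The labels name neither the kind of injury nor the sex, and nothing says that libraries came from separate mice, so each p-value measures only the spread between these libraries, which may be technical. Whether the knockout covers every tissue, and how the alleles were made, is not given in the sources used here. Sestrins are stress-induced proteins that restrain mTORC1. The comparisons ask how the levels of the pairs differ between genotypes and how they change during repair.

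Libraries held between 28396862 and 38950614 estimated counts, and 8 of the 10 members had at least 452 counts in each. Counting error is larger for Rpl3l, with 15 to 56 counts per library, and Rpl39l, with 6 to 32. Sesn2, a targeted gene, was at 75.1 and 84.3 CPM (counts relative to the scaled library size) in WT and 5.47 and 7.03 CPM in KO at day 0, and at 44.9 and 47.4 against 2.36 and 1.92 CPM at day 7. At day 21 it went against 2 labels, with 8.92 and 82.1 CPM in the libraries labelled WT and 9.86 and 108 CPM in those labelled KO. Sesn1, the other targeted gene, kept a clear level in KO, with 70.3 and 68.6 CPM in WT against 46.0 and 45.8 in KO at day 0 (edgeR adjusted p = 0.144), and 84.0 and 67.9 against 28.4 and 22.4 CPM on day 7 (0.0301). The libraries labelled WT on day 21 held 43.7 and 78.3 CPM of Sesn1 and those labelled KO 41.7 and 67.2, the lower of each label being the one with low Sesn2. Genotype at day 21 is therefore given by label only, and injury at day 21 is given as an average over both labels. The muscle stem cell markers were detected, with Pax7 between 3.14 and 19.2 TPM (a scaled level per length), but Dcn, a marker of fibro-adipogenic cells, lay between 2388 and 8071 TPM. In bulk RNA, fewer cells of a type and less RNA per cell cannot be told apart.

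Ribosomal protein transcripts typically begin within a stretch of pyrimidines, through which mTORC1 controls their translation. The 30 bases around the annotated start, 15 before it and 15 from it onward, are shown for the 3 pairs in which both members had a start in the RefSeq table of GRCm38.p6, so that the mates can be set side by side. Capitals mark the longest run of C and T, 5′ to 3′ on the gene's strand.
Rps27 (chr3:90213634-90213663, minus strand): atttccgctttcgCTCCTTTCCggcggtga
Rps27l (chr9:66946071-66946100, plus strand): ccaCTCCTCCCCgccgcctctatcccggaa
Rpl39 (chrX:37085208-37085237, minus strand): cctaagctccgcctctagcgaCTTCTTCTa
Rpl39l (chr16:10170213-10170242, plus strand): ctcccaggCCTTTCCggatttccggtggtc
Rpl22 (chr4:152325711-152325740, plus strand): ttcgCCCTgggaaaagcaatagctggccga
Rpl22l1 (chr3:28805493-28805522, plus strand): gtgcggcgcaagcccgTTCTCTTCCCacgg

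The run covered 9 bases in Rps27, where it spans the start itself, and 9 in Rps27l, where it lies upstream. It covered 8 bases in Rpl39, 7 in Rpl39l, 10 in Rpl22l1 just inside the transcript, and 4 in Rpl22. Rpl22, Rps27l and Rpl3l have 2 starts each in the table. The other start of Rpl22 has a run of 5 and that of Rps27l a run of 4, and the 2 starts of Rpl3l have runs of 5 and 4. The single start of Rpl7l1 has a run of 2. The run of Rpl22l1 is thus longer than that at either start of Rpl22. Rpl3 and Rpl7 are not in the table. A run of at least 8 on the gene's strand was present, at any start, in 4 of the 8 members with a start, in 24 of 55 other ribosomal protein genes (43.6%), and in 13.9% of 27018 genes. A run of letters is a description and not a measured regulatory site.

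In no pair do both members lie on the same chromosome. On GRCm38 Rpl3 lies at chr15:80077791-80091868 and Rpl3l at chr17:24727820-24736143. Rpl22 lies at chr4:152325742-152334071 and Rpl22l1 at chr3:28805436-28807424. Rps27 lies at chr3:90212522-90213651 and Rps27l at chr9:66946086-66949516. Rpl7 lies at chr1:16101295-16104662 and Rpl7l1 at chr17:46773907-46782672. Rpl39 lies at chrX:37082520-37085402 and Rpl39l at chr16:10170226-10174911. All 10 are annotated as protein coding.

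Reads were 76 bases long, and no 76-base stretch of transcript was shared between the members of any pair, so a read of one member cannot be a perfect match to its mate. Other copies did share such stretches: 63.9% of those of Rpl3, 49.6% of Rpl22l1, 42.3% of Rps27 and 37.3% of Rpl7 also occurred in transcripts of other genes (pseudogenes, predicted genes and Rps27rt among them), against at most 7.75% for the other 6 members and none for Rpl3l and Rpl39l. For Rps27 the sharer was Rps27rt, which with a pseudogene held 22.7% to 36.7% of the counts of Rps27 and its copies together, so the level of Rps27 is uncertain. At a length of 31 bases Rpl39 and Rpl39l shared 8 stretches, so part of a read can match both mates. The kit does not mark strand.

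Per length, the canonical member was above its paralog in every library for 4 pairs, while Rpl22l1 was above Rpl22 in all libraries except replicate 1 of KO at day 7. The medians over the 12 libraries ran from 976 TPM for Rps27 (465 to 1436) through Rpl3 at 547 (359 to 650), Rps27l at 477 (287 to 800) and Rpl7 at 456 (290 to 599). Then came Rpl22l1 at 238 TPM (145 to 301), Rpl39 at 187 (63.5 to 295), Rpl22 at 179 (83.8 to 296) and Rpl7l1 at 69.5 (56.7 to 96.0). Rpl3l was at 1.28 TPM (0.425 to 2.27) and Rpl39l at 1.03 (0.643 to 3.33). In this order the ranges of neighbours overlapped at each step except that from Rpl7l1 down to Rpl3l. Rpl3l, whose protein replaces Rpl3 in mature muscle fibres, made up 0.0742% to 0.555% of the TPM of its pair, and Rpl39l 0.218% to 1.79%. Rpl7l1 made up 10.5% to 22.0%, Rps27l 25.8% to 41.5% and Rpl22l1 46.8% to 69.6%.

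**Figure D1:**
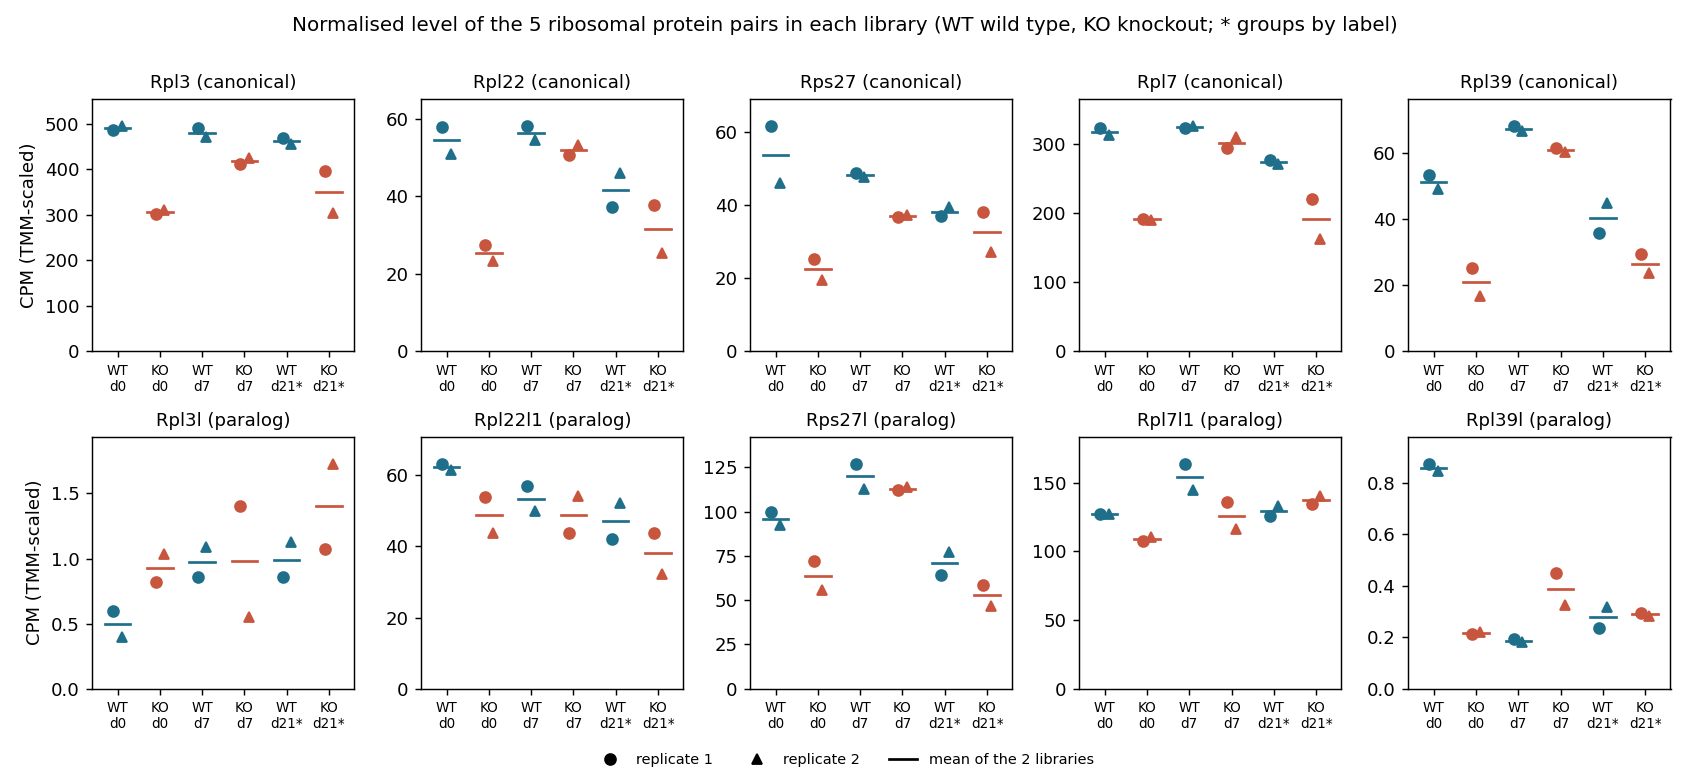
Level of each member in CPM (vertical axis from 0, scale differing by panel) in the 12 libraries, canonical members above and paralogs below, with replicate 1 as circles, replicate 2 as triangles and the mean of the 2 libraries as a line. The 5 canonical genes share a dip in the KO libraries of day 0, which for Rpl39 lie at 25.4 and 16.6 CPM against 53.6 and 49.3 in WT; asterisks mark groups that go by label at day 21.

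At day 0 all 5 canonical genes were lower in KO than in WT, and so was the paralog Rps27l. The paralog Rpl39l was called lower too. Of the day 0 libraries only those of WT, where Rpl39l is high, passed the filter on low counts, so nothing rests on its call. Among the canonical genes Rpl3 fell by 37.7%, the least, and Rpl39 fell by 59.1%, the most. The other 3 paralogs, Rpl3l, Rpl22l1 and Rpl7l1, did not pass the test, and the call of Rpl39l was lost with no filter on low counts. In all, 7 of the 10 members were called, at an adjusted p under 0.05 in edgeR's quasi-likelihood test with Benjamini-Hochberg adjustment over 15890 genes, where 27.4% of all genes were called in either direction and 12.6% as lower. The KO and WT ranges were apart for all 10 members, as for 75.1% of all genes. Both KO libraries lay below both WT libraries for 9 of the 10, as for 37.1% of all genes, and above them for Rpl3l, as for 38%.

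Rpl39, a very small protein lining the exit tunnel of the large subunit, was at 53.6 and 49.3 CPM in WT and 25.4 and 16.6 CPM in KO. Both KO libraries held less than the lower WT library, and Rpl39 fell by 1.29 on the log2 scale (standard error, SE, 0.191; adjusted p = 0.00149). Rps27, a zinc finger protein of the small subunit, was at 61.6 and 46.0 CPM in WT and 25.3 and 19.5 in KO. It fell by 1.26 (SE 0.190, adjusted p = 0.00160), and the gap between genotypes was wider than the gap between WT libraries. Rpl22, a large-subunit protein that also binds other RNAs, was at 57.8 and 51.0 CPM in WT and 27.5 and 23.4 in KO. It fell by 1.09 (SE 0.183, adjusted p = 0.00254).

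Rpl7 and Rpl3, core proteins of the large subunit, differed less in size and were tight within groups. Rpl7 was at 323 and 313 CPM in WT and 191 and 191 in KO, and it fell by 0.74 (SE 0.124, adjusted p = 0.00256). On the TPM scale the Rpl7 difference was -0.46 with limma (adjusted p = 0.0230), since its TPM were 457 and 447 in WT and 303 and 357 in KO. Rpl3, which sits near the peptidyl transferase centre, was at 486 and 494 CPM in WT and 301 and 311 in KO, and it fell by 0.68 (SE 0.113, adjusted p = 0.00238). All 5 canonical calls held at each of the alternatives tried and without any single library.

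Among the paralogs, Rps27l was at 99.8 and 92.3 CPM in WT and 72.0 and 55.8 in KO. It fell by 0.59 (SE 0.150, adjusted p = 0.0169), but the adjusted p was 0.104 and 0.0580 without WT replicate 1 or 2 and 0.150 without KO replicate 2 of day 0. Rpl39l was at 0.875 and 0.844 CPM in WT, from 28 and 32 counts, and at 0.213 and 0.221 CPM in KO, from 7 and 6 counts. It fell by 1.97 (SE 0.606, adjusted p = 0.0357). Of these 4 libraries only those of WT were over the filter's cut of 0.295 CPM, so the gene was tested through the group in which it is high, and with no filter the adjusted p was 0.0859. The adjusted p rose to between 0.136 and 0.173 when any 1 of the 4 day 0 libraries was left out. It was between 0.0508 and 0.0533 without either WT library of day 7 or either KO library of day 21. Germ cell markers were near 0, with a summed level of 0.227 to 0.368 TPM at day 0 over 5 genes, of which Dazl and Prm1 were at 0 in all 4 of these libraries.

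Rpl22l1 was at 63.3 and 61.4 CPM in WT and 53.9 and 43.9 in KO, with a log2 difference of -0.35 (SE 0.176, adjusted p = 0.168). Rpl7l1 was at 127 and 128 CPM in WT and 107 and 111 in KO, with a log2 difference of -0.22 (SE 0.0989, adjusted p = 0.120). In both paralogs the KO libraries lay below the WT libraries by less than the gap seen in the canonical mates, a contrast that was not tested. Rpl3l was at 0.593 and 0.396 CPM in WT and 0.821 and 1.03 in KO, with a log2 difference of 0.90 (SE 0.564, adjusted p = 0.265) on 15 to 28 counts per library.

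The rest of the ribosomal proteins set the scale for these values. Of 74 listed cytosolic ribosomal protein genes outside the pairs, 73 were tested and 72 were called lower in KO at day 0, with a median log2 fold change of -0.96 and a range from -2.27 to -0.36, against a median of 0.00 over all genes tested. The 5 canonical members lay inside this range. Rpl22l1, Rpl7l1 and Rpl3l lay above all 73, Rps27l lay above 63 of them, and Rpl39l lay below 72. Leaving out 1 library at a time gave between 55 and 73 called, the lowest without KO replicate 2 of day 0. The listed genes took 4.31% to 4.48% of all TPM in WT and 2.30% to 2.75% in KO at day 0. Of 4 other tested genes listed as paralogs or copies of ribosomal proteins, 3 were called lower: Rpl36al, Rpl37rt and Rps27rt, the last being the copy that shares reads with Rps27.

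**Figure D2:**
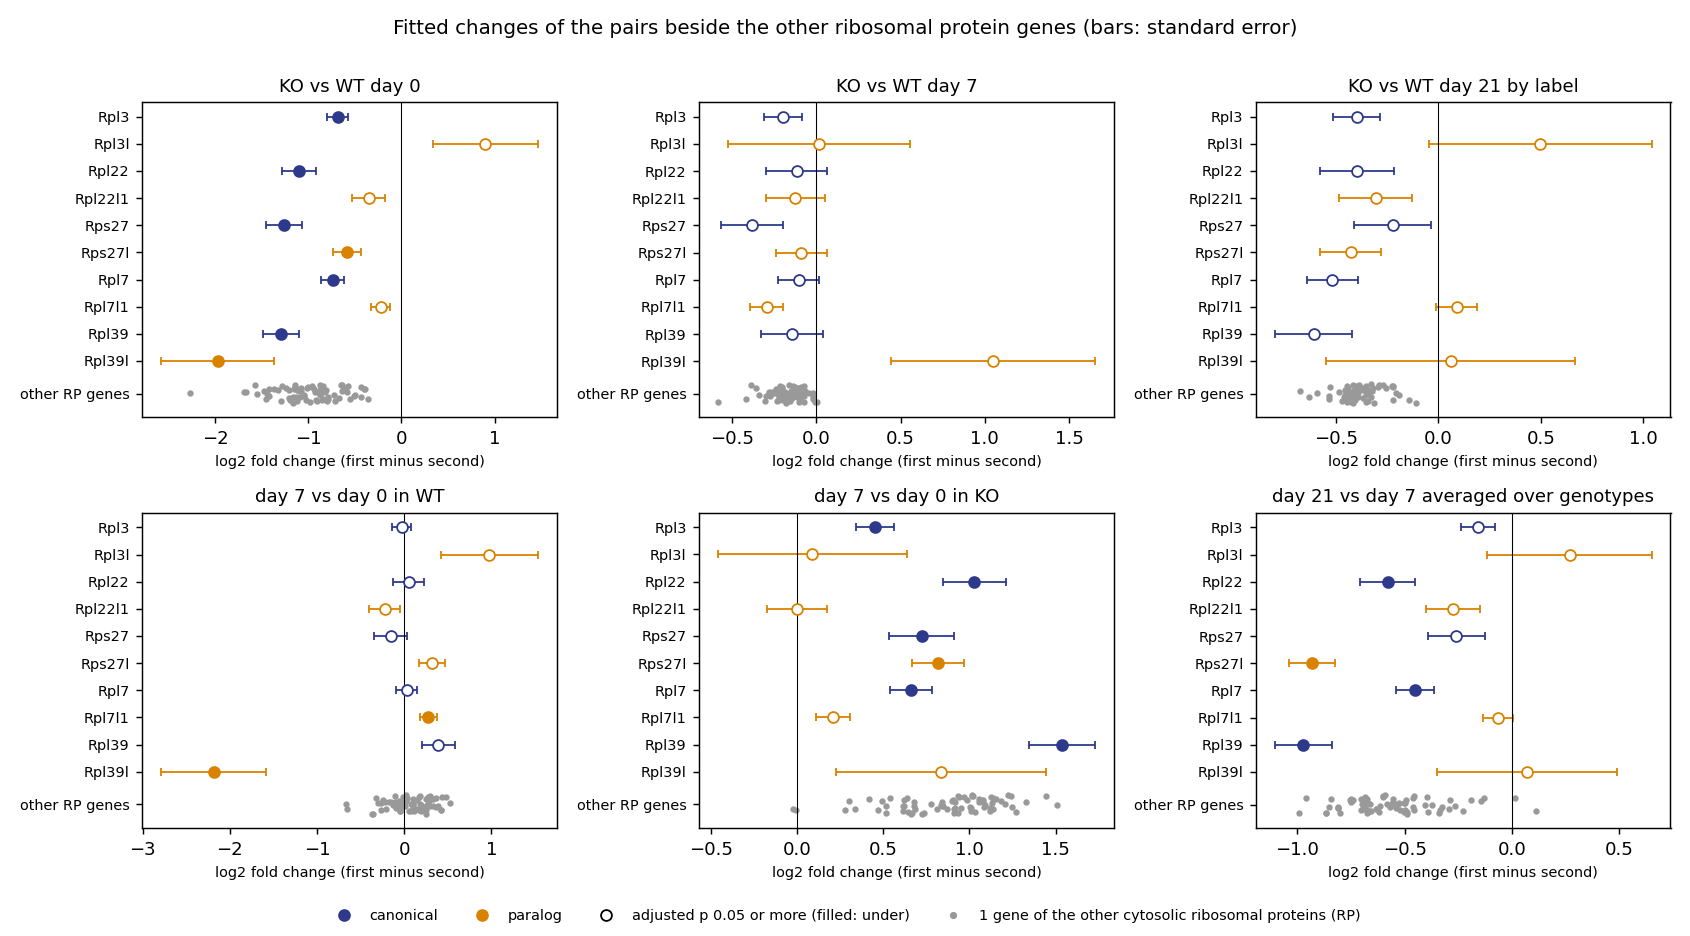
Fitted log2 fold change (horizontal axis, first group minus second) of each member in 6 comparisons, with bars for the standard error, filled points for an adjusted p under 0.05 and grey dots for the other ribosomal protein genes (RP), which are scattered vertically for legibility. In KO against WT at day 0 the canonical points lie within the grey cloud from -2.27 to -0.36, and Rpl22l1, Rpl7l1 and Rpl3l lie to its right.

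Other features of the day 0 libraries differed with genotype too. Of 9 muscle stem cell markers, 6 were called lower in KO and none higher (7 had an unadjusted p under 0.05), with a median log2 fold change of -0.89 beside the -0.96 of the ribosomal protein genes. Pax7, which defines these cells, was at 6.45 and 6.77 TPM in WT and 3.14 and 3.95 in KO, and the markers Myf5, Cd34 and Cdh15 were among those called. The summed level of the 9 markers, 1044 to 1062 TPM in WT and 1053 to 1115 in KO, does not show this, since Des, the intermediate filament of muscle, held most of it in KO, at 430 and 453 TPM in WT and 618 and 703 in KO. Of 12 genes of muscle differentiation 4 were called lower (median -0.70, summed level 197 to 204 TPM in WT and 99.9 to 105 in KO), as were 4 of 13 muscle fibre genes (median -0.46, 141 to 145 against 91.2 to 97.0 TPM). The sums were 7422 to 7560 TPM in WT against 5301 to 5321 in KO for 5 fibro-adipogenic genes, of which Col1a1 was called lower, and 3121 to 3128 against 742 to 782 for 5 red blood cell genes, all called lower. Of 5 endothelial genes Kdr, a receptor for vascular growth factor, was called higher, at 6.76 and 5.53 TPM in WT and 13.4 and 13.8 in KO, and the list median was 0.22. Leukocyte markers summed to 2031 to 2046 TPM in WT and 3405 to 3513 in KO, nearly all of it Lyz2, and Ptprc, which defines leukocytes, was between 0 and 0.0422 TPM. The part of these differences in the ribosomal protein result was not tested. Beside it, 35 listed genes of ribosome biogenesis, which make and assemble ribosomal RNA, showed 6 called higher and 9 called lower with a median of -0.19. Of 20 listed targets of p53, the pathway that induces Rps27l, 19 were tested. Among these 2 were called higher (Trp53inp1 and Cdkn1a) and 4 lower, with a median of -0.05.

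The balance within each pair is given as the log2 ratio of paralog to canonical TPM, as a description with no test, since the pairs were chosen with earlier results known. For Rpl22l1 over Rpl22 it was 0.36 and 0.48 in WT and 1.19 and 1.15 in KO at day 0. On the linear scale the ratio was 1.34 ± 0.0792 (SD, n = 2) in WT and 2.25 ± 0.0532 (SD, n = 2) in KO, the highest ratio of the 6 groups. For Rps27l over Rps27 it was -1.43 and -1.12 in WT and -0.60 and -0.54 in KO. On the linear scale Rps27l stood at 0.416 ± 0.0633 (SD, n = 2) of the Rps27 level in WT and 0.674 ± 0.0177 (SD, n = 2) in KO.

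Rpl7l1 over Rpl7 was at -2.83 and -2.80 in WT and -2.42 and -2.64 in KO at day 0, a mean difference of 0.29 that becomes 0.51 with CPM in place of TPM. Rpl3l over Rpl3 was at -9.70 and -10.40 in WT and -8.52 and -7.96 in KO. Rpl39l over Rpl39 went the other way, at -5.97 and -5.78 in WT and -6.80 and -6.50 in KO. At day 0 the KO and WT ratios were apart for all 5 pairs, with 4 ratios higher in KO and that of Rpl39l lower, in a comparison in which 75.1% of single genes did not overlap either.

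**Figure D3:**
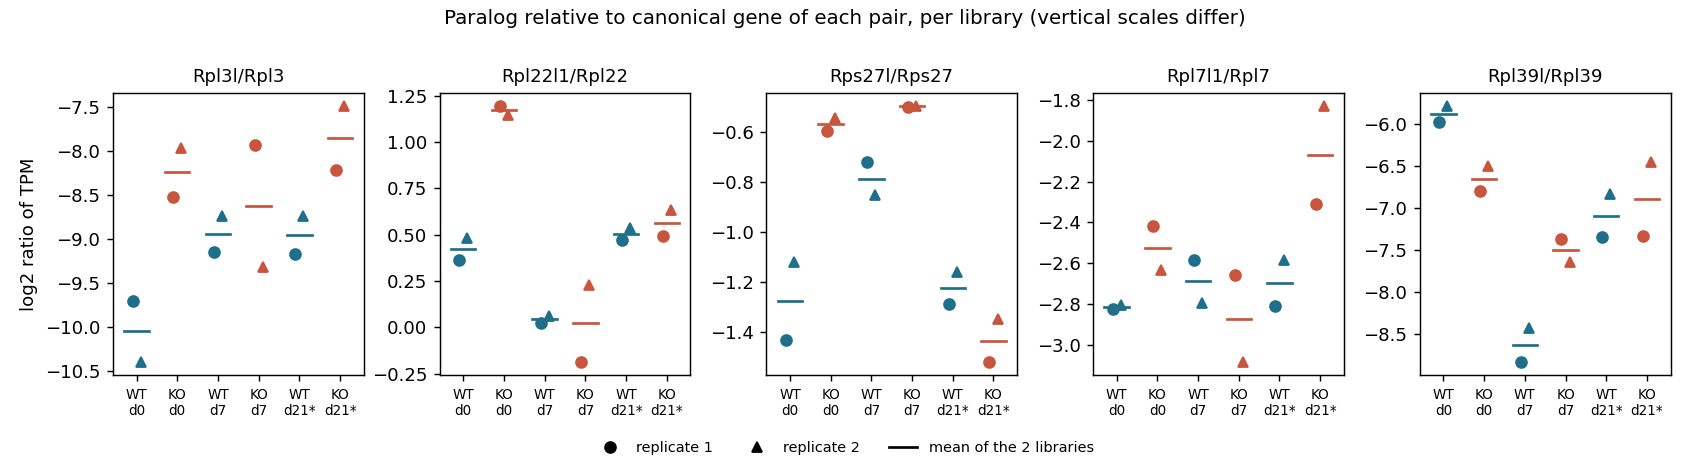
Log2 ratio of paralog TPM to canonical TPM (vertical axis, scale differing by panel) for each pair in the 12 libraries, with replicate 1 as circles, replicate 2 as triangles and the group mean as a line. Rpl22l1 over Rpl22 stands at 1.19 and 1.15 in the KO libraries of day 0 and between -0.19 and 0.63 in the other 10 libraries.

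At day 7 no member was called between genotypes with edgeR or DESeq2, where edgeR called 1.76% of all genes, and 1 member, Rpl7l1, had an unadjusted p under 0.05, as did 14.3% of all genes. All 5 canonical genes, and Rpl7l1, had both KO libraries below both WT libraries by small steps, as did 23.2% of all genes. With Rpl39l, which was higher in KO, 7 members did not overlap, against 47.6% of all genes.

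Rps27 had the largest of the canonical differences at day 7, at 48.9 and 47.6 CPM in WT and 36.9 and 37.2 in KO (log2 difference -0.38, SE 0.186, adjusted p = 0.402). Rpl3 was at 491 and 470 CPM in WT and 411 and 426 in KO (-0.20, adjusted p = 0.479). Rpl22 was at 58.1 and 54.6 CPM in WT and 50.7 and 53.3 in KO (-0.12, adjusted p = 0.846). Rpl7 and Rpl39 lay as close, with log2 differences of -0.10 and -0.15. For Rpl7l1 the values were 164 and 145 CPM in WT and 136 and 116 in KO (-0.29, adjusted p = 0.197). The other ribosomal protein genes had a median of -0.18, with 72 of 73 below 0 and none called with edgeR or DESeq2. An unadjusted p under 0.05 was found for 5 of them, and 2 were called lower when all or the 2 contradicted libraries of day 21 were left out. Rps27l was at 127 and 113 CPM in WT and 112 and 114 in KO, and Rpl22l1 at 56.9 and 49.9 CPM in WT and 43.9 and 54.1 in KO, so that both overlapped. In this comparison 11 of 12 genes of muscle differentiation lay above 0 (median 0.72, 2 called higher), as did 11 of 13 muscle fibre genes (0.50, none called). All 5 endothelial and all 5 red blood cell genes lay below 0 (-0.66 and -0.71, none called). Of 9 muscle stem cell markers 4 lay above 0 and 5 below (-0.03), and 3 of 35 biogenesis genes were called lower (-0.19). The part of these differences in the ribosomal protein values was not tested.

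The change during repair was taken within each genotype first. From day 0 to day 7 in WT, none of the 5 was called, and 2 of the 10 members were, both paralogs, where 47% of all genes were called. Rpl7l1 rose from 127 and 128 to 164 and 145 CPM, by 0.28 on the log2 scale (SE 0.0987, adjusted p = 0.0398). Rpl39l fell by 2.18, from 0.875 and 0.844 to 0.191 and 0.181 CPM (SE 0.602, adjusted p = 0.0131), with the libraries of day 0 alone over the filter's cut. With no filter Rpl39l was also called, while Rpl7l1 was not. Neither call held when single libraries were left out: without WT replicate 1 of day 0 the adjusted p was 0.164 for Rpl7l1 and 0.0631 for Rpl39l, and without WT replicate 2 of day 0 it was 0.154 and 0.0600. Without WT replicate 1 of day 7 it was 0.261 and 0.0689, without WT replicate 2 of day 7 it was 0.0728 for Rpl39l, and without KO replicate 1 or 2 of day 0 it was 0.0587 and 0.0688 for Rpl7l1.

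In WT the canonical genes had log2 differences between -0.16 and 0.39 from day 0 to day 7. Rpl3 went from 486 and 494 to 491 and 470 CPM (log2 difference -0.03, SE 0.112) and Rpl7 from 323 and 313 to 324 and 326 CPM (0.03, SE 0.123). Rpl22 had a log2 difference of 0.05, Rps27 of -0.16 and Rpl39 of 0.39 (adjusted p = 0.107), the last with both day 7 libraries above both of day 0. Of the 73 other ribosomal protein genes, 8 were called higher and 2 lower, with a median of 0.07. Leaving out either WT library of day 0 gave 2 called higher, WT replicate 1 or 2 of day 7 gave 1 or 5, and either KO library of day 21 gave 14. A fit of the 4 WT libraries alone called 22 higher and 18 lower. On the TPM scale, on which the median of all genes itself moved by 0.24 between these days, limma called 33 of the 73 and also Rpl7, Rps27l and Rpl39 as higher. The biogenesis list had 25 of 35 genes called higher and a median of 0.69. Of the cell markers in WT, 3 of 9 muscle stem cell genes were called higher and 2 lower (median 0.28), and all 5 red blood cell genes lower (median -2.29). Of 5 leukocyte genes 4 were called higher and Lyz2 lower (median 3.84). The summed leukocyte level was 2031 to 2046 TPM at day 0, nearly all of it Lyz2, and 349 to 475 TPM at day 7.

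In KO, 6 of 10 members rose from day 0 to day 7, the 5 canonical genes and Rps27l, where 46.9% of all genes were called and 24.7% as higher. Rpl39 went from 25.4 and 16.6 to 61.8 and 60.3 CPM and rose by 1.54 (SE 0.192, adjusted p = 0.000104). This was more than any of the 73 other ribosomal protein genes, but the highest of them rose by 1.51, which lies within that SE. Leaving out 1 library at a time gave a rise of Rpl39 between 1.24 and 1.87. Rpl22 went from 27.5 and 23.4 to 50.7 and 53.3 CPM and rose by 1.03 (SE 0.183, adjusted p = 0.00103). The KO libraries of day 7 lay below those of WT for both genes, without an overlap.

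Rps27l rose by 0.82 (SE 0.151, adjusted p = 0.00127), from 72.0 and 55.8 to 112 and 114 CPM. Rps27 rose by 0.72 (SE 0.189, adjusted p = 0.00961) from 25.3 and 19.5 to 36.9 and 37.2 CPM, with an adjusted p of 0.107 without KO replicate 2 of day 0. Rpl7 rose by 0.66 (SE 0.124, adjusted p = 0.00141), from 191 and 191 to 294 and 310 CPM. Rpl3 rose by 0.45 (SE 0.112, adjusted p = 0.00732), from 301 and 311 to 411 and 426 CPM, with an adjusted p of 0.0527 and 0.0504 without KO replicate 1 or 2 of day 0.

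The paralogs Rpl22l1, Rpl7l1, Rpl3l and Rpl39l did not pass this test in KO. Rpl22l1 had a log2 difference of 0.00 (SE 0.177), from 53.9 and 43.9 to 43.9 and 54.1 CPM, while its mate Rpl22 rose as given above. Rpl7l1 was at 136 and 116 CPM at day 7 (0.21, adjusted p = 0.111). Rpl39l was at 0.451 and 0.325 CPM, from 18 and 10 counts (0.83, adjusted p = 0.291). Rpl3l was at 1.40 and 0.552 CPM (0.09, adjusted p = 0.914), in libraries in which 12 of 13 mature muscle fibre genes had risen since day 0 with a median log2 fold change of 5.19. In WT 12 of 13 had risen too, with a median of 4.47, and Rpl3l was at 0.861 and 1.09 CPM (0.98, adjusted p = 0.179). Of the other ribosomal protein genes 68 of 73 rose in KO, with a median of 0.92. Beside them 5 of 9 muscle stem cell markers were called higher and 2 lower, with a median of 0.98. Of 5 leukocyte markers 4 were called higher and Lyz2 lower, with a median of 4.44, and Ptprc reached 1.67 and 0.241 TPM. All 12 genes of muscle differentiation were called higher, as were Col1a1 and Lum of 5 fibro-adipogenic genes, of which Dcn was called lower. The part of these lists in the ribosomal protein values was not tested.

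The difference between the genotypes in this change was itself tested as an interaction. It is the KO change minus the WT change, and it was called for 4 members, all with a value above 0, where 13.5% of all genes were called and 6.08% in this direction. The interaction was 0.98 for Rpl22 (SE 0.255, adjusted p = 0.0330), 0.63 for Rpl7 (SE 0.174, adjusted p = 0.0391), 1.14 for Rpl39 (SE 0.265, adjusted p = 0.0216) and 3.02 for Rpl39l (SE 0.856, adjusted p = 0.0433). For Rpl22, Rpl7 and Rpl39 the KO change was the larger, while for Rpl39l the WT change was, at -2.18 on the log2 scale against 0.83 in KO. Rpl39l was over the filter's cut in both libraries of WT day 0 and of KO day 7, the groups that raise its value, in neither of the other 2 groups, and the adjusted p was 0.0946 with no filter, so nothing rests on its call. The values for Rps27 (0.88, adjusted p = 0.0540) and Rpl3 (0.48, adjusted p = 0.0713) lay close to the threshold. Of the 73 other ribosomal protein genes, 52 were called and all 73 had a value above 0, with a median of 0.79. Called with a value above 0 were also 3 of 9 muscle stem cell markers, 5 of 12 genes of muscle differentiation and 4 of 13 muscle fibre genes, whose lists had medians of 0.53, 1.37 and 0.97. The call is lost for all 4 members without any 1 of WT replicates 1 or 2 of day 0, KO replicate 2 of day 0 or any single day 7 library, and for all but Rpl39 without KO replicate 1 of day 0. That of Rpl39l is also lost without KO replicate 1 (0.0603) or 2 (0.0592) of day 21. The count of 52 falls to between 5 and 23 without any 1 of WT replicates 1 or 2 of day 0, KO replicate 2 of day 0 or a day 7 library. It was 16 and 17 with limma on log2 TPM at either pseudocount, 7 on that scale with no filter, and 70 when the day 21 libraries were left out of the fit. Over the alternatives the adjusted p ran from 0.00227 to 0.136 for Rpl22, from 0.00115 to 0.372 for Rpl7, from 0.000826 to 0.0811 for Rpl39 and from 0.00308 to 0.148 for Rpl39l.

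At day 7 the gap between genotypes was smaller than at day 0 for 4 of the pair ratios, except that of Rpl7l1 without KO replicate 1 of day 7, and that of Rpl39l over Rpl39 turned from -0.78 to 1.13. For 3 pairs the sign of the day 7 gap depends on single libraries: leaving out 1 library gave -0.23 to 0.19 for Rpl22l1 over Rpl22, -0.40 to 0.03 for Rpl7l1 over Rpl7 and -0.38 to 1.01 for Rpl3l over Rpl3. Rpl22l1 over Rpl22 was at 0.02 and 0.06 in WT and -0.19 and 0.23 in KO, close to equal levels in both genotypes. Rps27l over Rps27 was at -0.72 and -0.85 in WT and -0.50 and -0.50 in KO, still without overlap. Rpl7l1 over Rpl7 was at -2.59 and -2.79 in WT and -2.66 and -3.09 in KO, and that of Rpl3l also overlapped. Rpl39l over Rpl39 was lowest of all groups in WT at day 7, at -8.84 and -8.43, against -7.37 and -7.64 in KO.

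By label, no member was called between genotypes at day 21, where edgeR called 0.0126% of all genes, 4 members had an unadjusted p under 0.05 (Rpl3, Rps27l, Rpl7 and Rpl39, against 14.2% of all genes), and DESeq2 called Rpl3 and Rpl7. Without KO replicate 1 of that day the same 2 genes were called with edgeR as well (adjusted p = 0.0229 and 0.00908). The library labelled WT with low Sesn2 and its WT partner held 468 and 456 CPM of Rpl3, and the libraries labelled KO held 396 and, with high Sesn2, 304. Rpl39 was at 35.9 and 45.0 CPM in those labelled WT and 29.4 and 23.7 in those labelled KO. Rpl7 was at 277 and 272 against 221 and 162 CPM, and Rps27l at 64.4 and 77.2 against 58.4 and 46.8. In each of these 4 genes the library labelled KO with high Sesn2, replicate 2, was the lowest of the day, and 5 members did not overlap by label, against 38.1% of all genes. The fifth was Rpl7l1, at 126 and 133 CPM in the libraries labelled WT and 135 and 140 in those labelled KO. The other ribosomal protein genes had a median of -0.40 with all 73 below 0 and none called with edgeR, 54 with an unadjusted p under 0.05, 19 called lower with DESeq2, and 28 with edgeR without KO replicate 1 of day 21. By the same labels 8 of 9 muscle stem cell markers were below 0 (median -0.42) and 12 of 13 muscle fibre genes above 0 (median 0.85), with none called in either list and an unadjusted p under 0.05 for 5 and 8 genes, and their part in these values was not tested.

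Averaged over the labels, 4 of 10 members fell from day 7 to day 21, where 56.8% of all genes were called and 28.4% as lower. Rpl39 fell by 0.97 (SE 0.133, adjusted p = 0.000127) and Rps27l fell by 0.93 (SE 0.107, adjusted p = 3.8e-05), both with all 4 libraries of day 21 below all 4 of day 7. Rpl22 fell by 0.58 (SE 0.128, adjusted p = 0.00287) and Rpl7 by 0.45 (SE 0.0871, adjusted p = 0.00127), again without overlap. All 4 thus had day 21 wholly below day 7, as did 24.7% of all genes. Without the 2 libraries whose labels Sesn2 contradicts, Rpl22 fell by 0.35 (adjusted p = 0.00989). Of the other ribosomal protein genes 68 of 73 fell, with a median of -0.59. Between these days all 12 genes of muscle differentiation fell (median -4.58), as did 11 of 13 muscle fibre genes (-2.64), while all 5 red blood cell genes rose (1.76). Of 9 muscle stem cell markers 4 rose and 3 fell. Of 5 leukocyte genes 4 fell and Lyz2 rose (median -1.72). The summed leukocyte level was 349 to 475 TPM in WT and 350 to 515 in KO at day 7. At day 21 it was 708 to 1016 TPM in the libraries labelled WT and 716 to 939 in those labelled KO. The part of these lists in the ribosomal protein values was not tested. Without KO replicate 1 of day 21, 7 members were called, adding Rpl3, Rpl22l1 and Rps27.

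Rps27, whose level is uncertain as given above, had a log2 difference of -0.26 (SE 0.132, adjusted p = 0.121), with 37.0, 39.4, 38.2 and 27.3 CPM at day 21. Its difference from the change of Rps27l was not tested. Rps27l over Rps27 was at -1.29 and -1.16 in the libraries labelled WT and -1.52 and -1.35 in those labelled KO. These 4 ratios lie below the 4 of day 7. Rpl22l1 over Rpl22 was at 0.47, 0.54, 0.49 and 0.63 in the same order of libraries, above the 4 of day 7. Rpl39l over Rpl39 was above the ratios of day 7 too (mean difference 1.08), while the ratios of Rpl3l and Rpl7l1 overlapped between the days. By label at day 21, Rpl3l over Rpl3 was higher in KO by 1.10 and Rpl7l1 over Rpl7 by 0.63, both without overlap. The ratios of Rpl22l1 and Rpl39l overlapped between the labels. Rpl3 had a log2 difference of -0.16 and Rpl7l1 of -0.07, neither called.

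Against day 0, 2 members were called at day 21, both paralogs and both lower, where 45.9% of all genes were called and 20.8% as lower. Rpl22l1 fell by 0.39 (adjusted p = 0.0284) and Rps27l by 0.36 (SE 0.106, adjusted p = 0.0186). The libraries of the 2 days overlapped for all 10 members, against 30.6% of all genes that did not overlap. Without the 2 libraries that Sesn2 contradicts the adjusted p was 0.179 for Rpl22l1 and 0.114 for Rps27l. Both calls were also lost without WT replicate 1 of day 0 (0.0756 and 0.0638), KO replicate 1 of day 0 (0.114 and 0.0863), WT replicate 1 of day 21 (0.0861 and 0.0559) or KO replicate 2 of day 21 (0.0929 and 0.0623), and that of Rpl22l1 without WT replicate 2 of day 0 (0.0647). The 5 canonical genes had log2 differences between -0.10 and 0.05, while 8 of 9 muscle stem cell markers and 12 of 13 muscle fibre genes were called higher (medians 0.84 and 2.27). The other ribosomal protein genes had 5 called lower and a median of -0.10, with 2 to 14 called lower when single libraries were left out, the highest without KO replicate 1 of day 21 and the lowest without WT replicate 1 of day 0, KO replicate 1 of day 0, WT replicate 1 of day 21 or KO replicate 2 of day 21. Without the 2 libraries that Sesn2 contradicts, 6 were called higher and 1 lower and the median was 0.03. Without KO replicate 2 of day 21, 3 were called higher and 2 lower, and on the TPM scale limma called 2 higher and 1 lower, with a median of 0.02.

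Across the 12 libraries the 5 canonical members and Rps27l had higher correlations with the other ribosomal protein genes than the other 4 paralogs. Likeness is given as Pearson's r of log2 CPM over the 12 libraries, as a description: libraries of 1 group share their condition, and all genes share each library's scaling. The median r with the listed ribosomal protein genes was 0.96 for Rpl22, 0.95 for Rpl39, 0.93 for Rpl7, 0.87 for Rps27 and 0.86 for Rpl3. Among the paralogs it was 0.88 for Rps27l, 0.62 for Rpl22l1, 0.50 for Rpl7l1, 0.37 for Rpl39l and -0.42 for Rpl3l. Of the 10 genes closest to each member, the listed ribosomal proteins held 10 for Rpl39, 9 for Rpl22, Rps27 and Rpl7, and 7 for Rpl3, and none for any of the 5 paralogs.

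**Figure D4:**
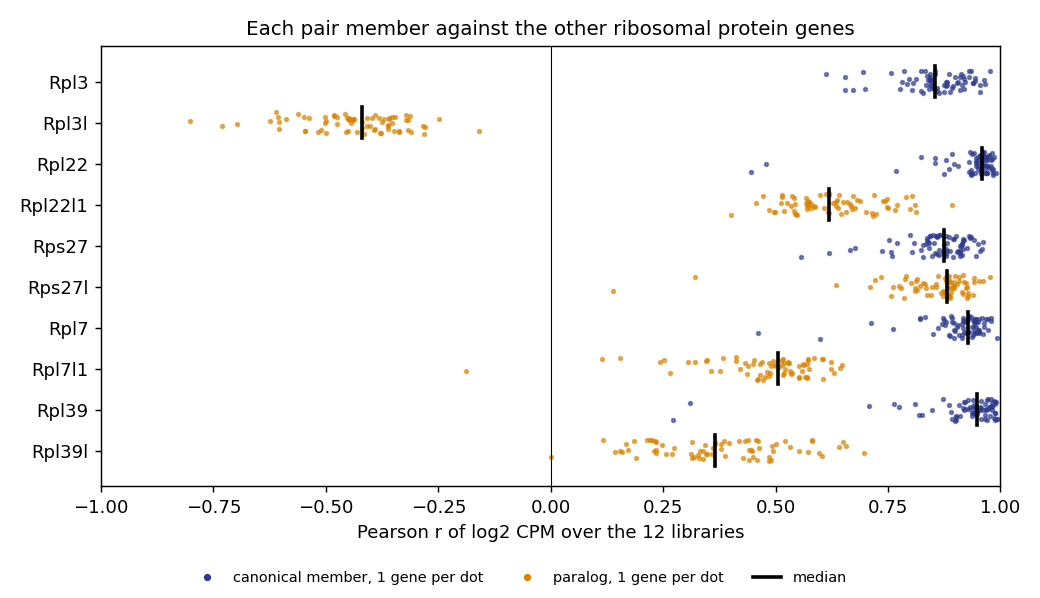
Pearson's r of log2 CPM over the 12 libraries (horizontal axis) between each member and each of the other ribosomal protein genes, 1 dot per gene, with the median as a black bar. The medians of the canonical members lie between 0.86 and 0.96 and those of the paralogs between -0.42 and 0.88.

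The 3 genes most like each paralog were as follows. For Rps27l they were Rpl36al, itself a ribosomal protein paralog, Hint1 and Hmgb1, an abundant chromatin protein, each at 0.99. For Rpl22l1 they were Cetn3, a centrosome protein, Cuta and Ctdsp1 at 0.93 each. For Rpl7l1 they were Irak1, a kinase of innate immune signalling, Gtf3c5, a subunit of a factor of RNA polymerase III, and Pacs2 at 0.89 each. Rpl3l was closest to Rrp12, a ribosome assembly factor, at 0.92 and to Nsmaf and Ikbkap at 0.91. Rpl39l was closest to the agouti gene a at 0.95, Capg, an actin-capping protein, at 0.94 and Crabp1, which binds retinoic acid, at 0.93. For Rpl3l and Rpl39l, whose counts are low, the order of such genes is open to counting noise.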

How the data were processed

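Per the submitters' processing notes, the names kallisto 0.46.1, mm10 and GRCm38.p6 apply, with no role stated. The authors deposited estimated counts per gene, TPM of the same genes, which summed to 874221 to 883224 per library, and regularised log2 values of 21782 genes corrected for a batch that is not named in the sources used here. Cells were sorted into Trizol, with cDNA made by SMART-Seq v4 and single-end reads of 76 bases, per the labels' protocols.

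Estimated counts were rounded, filtered with filterByExpr and scaled by TMM. The robust quasi-likelihood fit of edgeR 4.0.16 gave each of the 6 groups a mean, with 6 residual degrees of freedom and 15890 genes tested. All 10 members were tested, and Rpl39l was over the cut of 0.295 CPM in only 5 libraries (both WT of day 0, both KO of day 7 and WT replicate 2 of day 21). A gene was called at a Benjamini-Hochberg adjusted p under 0.05 over all genes tested. Each standard error was taken as the log2 fold change divided by √F.

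Members and lists were chosen with earlier results of these data known. The named genes are all members, Sesn1 and Sesn2, the 3 genes of highest Pearson r with each paralog (no unnamed models, pseudogenes or members), and at most 3 called genes per list. Outside that rule, the cell markers Pax7, Des, Dcn, Lyz2, Ptprc, Dazl and Prm1 were named after their values were seen. Positions are from GENCODE M21, in which 29808 of 30154 identifiers were found, and start sequences from RefSeq.

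Alternatives were DESeq2 1.42.0, median-of-ratios scaling, other filters, fewer libraries, a replicate block, limma 3.58.1 on log2 TPM or on the deposited log2 values, copies added to a member, CPM for pair ratios, and leaving out each library. Copies were matched by symbol. None was matched for Rpl7 or Rpl22l1, though both share 76-base stretches with other genes, so adding copies could not test these members. The tests were checked on data simulated with edgeR's own estimates of spread, in which DESeq2 made more false calls than edgeR. That setting can favour edgeR, so it cannot rank the tools. The calls of DESeq2 are given as an alternative and support nothing. R 4.3.3, Python 3.11.15 and matplotlib 3.10.9 were used.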

Additional observations from a re-analysis of the deposited data

Results flagged for a closer look

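The change from day 0 to day 7 differed between the genotypes by edgeR's interaction test for 4 members, where 13.5% of all genes were called and 6.08% with a value above 0. Of the 73 other ribosomal protein genes 52 were called, all above 0, and leaving out 1 library at a time gave 0 to 5 members called. The interaction, KO minus WT on the log2 scale, was 0.98 for Rpl22 (adjusted p = 0.0330), 0.63 for Rpl7 (0.0391), 1.14 for Rpl39 (0.0216) and 3.02 for Rpl39l (0.0433). For Rpl22, Rpl7 and Rpl39 the WT change was between 0.03 and 0.39 and the KO change between 0.66 and 1.54. Rpl39l had a WT change of -2.18 and a KO change of 0.83, from 28 and 32 down to 8 and 7 counts in WT and from 7 and 6 to 18 and 10 counts in KO. It passed the filter on low counts through WT day 0, KO day 7 and 1 library of WT day 21, and WT day 0 and KO day 7 are the groups that raise its interaction. With no filter its adjusted p was 0.0946, so nothing rests on its call. The groups of 2 libraries are too small for a search for single libraries that stand apart.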

How the results depend on the processing

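No alternative turned the direction of a called result. Of the alternative counts of called members, 156 were within 1.5 times the count reported and 41 were not; of the member fold changes, 1805 kept their side of the threshold, 67 gained a call and 89 lost one. From day 0 to day 7 in WT, the 2 calls became 1 with median-of-ratios scaling, with no filter, with at least 10 counts in every library and with the replicate block, and 5 in a fit of those libraries alone and with limma on log2 TPM at a pseudocount of 1, of 0.1 and with no filter. From day 0 to day 21 the 2 calls became 1 with limma on log2 TPM in all 3 forms, 4 on the batch-corrected log2 values, and 0 without the 2 libraries that Sesn2 contradicts, an alternative chosen after seeing the data. From day 7 to day 21 the 4 calls became 7 with limma on log2 TPM at either pseudocount. The 4 interaction calls became 7 when the day 21 libraries were left out of the fit, 2 with limma on log2 TPM at either pseudocount and 1 with no filter. DESeq2 called 2 members by label at day 21. For these moves the cause was not tested.

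Leaving out 1 library at a time gave 5 to 7 members called between genotypes at day 0, 0 at day 7 and 0 to 2 at day 21, 0 to 2 from day 0 to day 7 in WT and 4 to 7 in KO, 0 to 3 from day 0 to day 21, 4 to 7 from day 7 to day 21, and 0 to 5 for the interaction. With 1 library left in a group, that library is assumed to vary like the others. Over all genes, the fit with no day 21 libraries called 1169 genes between genotypes at day 7 in place of 280, and 3887 interactions in place of 2141. DESeq2 called 795 at day 7 and 475 at day 21.

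The replicate numbers did not pair the libraries: correlations of replicate differences lay between -0.14 and 0.07. As a replicate block they moved the WT count from 2 to 1 and ended the calls of Rpl39l at day 0 (adjusted p = 0.0539) and in the interaction (0.0661). Testing with no filter on low counts ended the same 2 calls (0.0859 and 0.0946).

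On log2 TPM with a pseudocount of 1 the log2 difference of Rpl7 at day 0 was -0.46 and its interaction 0.30 (adjusted p = 0.295). That of Rpl39l was -1.25 at day 0, -1.29 from day 0 to day 7 in WT and 1.73 in the interaction, where the pseudocount is near its level. That of Rpl22 from day 7 to day 21 was -1.02 and that of Rpl7l1 from day 0 to day 7 in WT was 0.50. On this scale the median of all genes from day 0 to day 7 moved by 0.24 in WT and 0.12 in KO. With copies added to Rps27, its pair ratio at day 21 differed by -0.08 by label in place of -0.21. Depth limits Rpl3l and Rpl39l.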

Other observations

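Among the lists beside the ribosome, the 12 tested genes of muscle differentiation all rose from day 0 to day 7, with a median log2 fold change of 4.45 in WT and 6.17 in KO. From day 0 to day 21, averaged over the labels, 25 of 35 genes of ribosome biogenesis rose, with a median of 0.47.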
